A study of Homo sapiens with 12 samples.

Results

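The histone-high cells of the control library were a class of the precursor B acute lymphoblastic leukaemia line Nalm-6 that carried many transcripts of HIST1H4C, a replication-dependent histone H4 gene, and few of the genes that peak in mitosis. They numbered 1830 of the 5598 control cells that passed the filters (32.7%, 95% exact binomial interval 31.5 to 33.9). The series holds 11564 barcodes in 2 single-cell RNA sequencing (scRNA-seq) libraries. A cell passed with more than 2000 and fewer than 6000 detected genes and under 20% of its unique molecular identifiers (UMIs, counted molecules) from mitochondrially encoded genes. The UMIs of 8 mitotic genes (CCNB1, CCNB2, CDC20, PLK1, AURKA, CENPF, HMMR and UBE2C) were summed per cell, the top 20% of cells by that sum were set aside as mitotic cells, and of the rest, those with 40 or more HIST1H4C UMIs per 10000 UMIs of the cell were called histone-high. The members were thus chosen by HIST1H4C and by the 8 mitotic genes, so their levels are given as a description, and nothing rests on them.

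The remaining 3768 passing cells were 2648 low-histone cells, which were under both limits (47.3% of passing cells), and the 1120 mitotic cells. Nalm-6 is an established human line with the phenotype of a pre-B cell. The control library carries the labels empty vector and 72 h, and its labels give no doxycycline dose. Its title gives DMSO, a solvent, in place of a vector, and the study describes DMSO-treated Nalm-6 cells kept for a shorter time. Whether its cells carried the vector, had been given solvent or both, and for how long, cannot be told apart. The other library is labelled induced RUNX1 expression after 72 h, from cells that carried an inducible RUNX1 construct and received doxycycline at 500 ng/ml. RUNX1, the induced gene, read 65.8 CPM (UMIs of the gene per 1000000 UMIs of the group) in histone-high control cells (95% Poisson interval 62.8 to 69.0) and 27.6 CPM in the cells of the other library within the same limits, a log2 ratio of -1.26 (-1.45 to -1.07). That direction goes against the label. Whether the construct holds the counted 3' end is not given in the sources used here, so that library is called the library labelled RUNX1. Each group was 1 library, so there is no replicate error: every interval covers counting error only, and no p-value was computed.

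Replication-dependent histone genes lie in clusters and are transcribed mainly while DNA is copied, when each new stretch of DNA needs histones. Cyclin E and CDK2 start this transcription at the G1/S transition, and the transcripts are destroyed again as replication ends. Most of these messenger RNAs end in a stem-loop in place of a poly(A) tail, so capture by poly(A) sees only part of them, and a higher UMI count cannot be told apart from a larger polyadenylated share. Several are near-identical copies of each other, which makes the count of a single gene uncertain. Deoxynucleotide enzymes such as RRM2 and TK1 are also best known for S phase, and cyclin B, PLK1 and their partners for G2 and mitosis.

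The upstream sequences of the 4 linker histone H1 genes, of RRM2 and of HIST1H2BK are shown. The H1 genes and RRM2 were higher in histone-high cells than in low-histone and in mitotic cells, whereas HIST1H2BK was lower than in low-histone cells. RRM2 did not differ in this way from cells just below the HIST1H4C limit. Each run is the 150 bases before the RefSeq transcript start (GRCh38.p14), written 5′ to 3′ on the strand of the gene. Capitals mark the words searched on either strand. These were CCAAT, the TATA word TATAAA, the H1 box AAACACA, the octamer ATTTGCAT, and for the cell cycle homology region either TTTGAA or its variant TTTAAA. The E2F-type words searched were TTTGGCGC, its relative TTTCGCGC, then TTTCCCGC and also TTTGCCGC. The TATA and homology region words can share bases. The windows are chr6:27867589-27867738 (minus strand), chr6:26056471-26056620 (minus), chr6:26234988-26235137 (minus), chr6:26156179-26156328 (plus), chr2:10122589-10122738 (plus) and chr6:27146859-27147008 (minus).
HIST1H1B: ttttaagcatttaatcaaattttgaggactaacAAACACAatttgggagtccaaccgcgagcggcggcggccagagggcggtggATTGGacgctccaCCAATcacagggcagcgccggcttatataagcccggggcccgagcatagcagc
HIST1H1C: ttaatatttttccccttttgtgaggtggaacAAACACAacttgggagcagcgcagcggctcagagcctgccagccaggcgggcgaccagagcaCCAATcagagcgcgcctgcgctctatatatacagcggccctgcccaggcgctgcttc
HIST1H1D: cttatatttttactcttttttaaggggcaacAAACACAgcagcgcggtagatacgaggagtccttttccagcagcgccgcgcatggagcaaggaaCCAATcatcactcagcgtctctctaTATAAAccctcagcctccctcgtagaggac
HIST1H1E: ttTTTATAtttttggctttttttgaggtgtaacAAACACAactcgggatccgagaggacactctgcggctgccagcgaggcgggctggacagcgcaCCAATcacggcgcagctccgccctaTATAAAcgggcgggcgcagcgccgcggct
RRM2: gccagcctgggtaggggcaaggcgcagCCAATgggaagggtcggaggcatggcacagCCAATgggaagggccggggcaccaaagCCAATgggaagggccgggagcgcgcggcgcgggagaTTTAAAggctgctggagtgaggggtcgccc
HIST1H2BK: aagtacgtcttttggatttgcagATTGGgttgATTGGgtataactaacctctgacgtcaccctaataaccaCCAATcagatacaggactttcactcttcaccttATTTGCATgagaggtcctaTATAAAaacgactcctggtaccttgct

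All 4 H1 windows held the H1 box, with its first base 117 or 119 bases before the start, and a CCAAT word between 66 and 53 bases before it. RRM2 held CCAAT at 123, 93 and 66 bases before the start. HIST1H2BK held the octamer ATTTGCAT, a word known from H2B promoters, 46 bases before its start, and no H1 box. Over windows of 300 bases (250 before and 50 after the first-listed start), CCAAT on either strand stood in 50 of the 60 replication-dependent histone genes with an entry (83.3%), against 35.7% of all 27305 promoters. The share was 16 of 16 for H2A, 13 of 13 for H2B, 12 of 12 for H3 and 3 of 13 for H4. The H1 box stood in 6 of 6 H1 windows and in 5.76% of all promoters. The octamer stood in 9 of 13 H2B and 11 of 16 H2A windows, against 1.80% of all. A word of the cell cycle homology region stood in 24 of 34 windows of other G2/M genes and in 24.3% of all promoters. An E2F-type word stood in 11 of 23 windows of origin licensing genes and in 3.33% of all promoters. These are matches of letters in a window, not sites of binding.

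In cells under the mitotic limit, HIST1H4C was spread over a low and a high class. Of these cells 2012 lay under 10 UMIs per 10000, 158 between 20 and 30, and 315 between 70 and 80. The 10th percentile, median and 90th percentile were 47.1, 70.9 and 98.6 per 10000 in histone-high cells and 1.37, 4.90 and 26.6 in low-histone cells. Mitotic cells held both classes, with 461 at or over the limit (median 86.9) and 659 under it (median 5.15). As CPM of the summed UMIs, HIST1H4C was 7296 in histone-high, 942 in low-histone and 3635 in mitotic cells. The limit does not fall in an empty range: the 110 cells between 35 and 40 per 10000 and the 126 cells between 40 and 45 read 242 and 237 CPM of RRM2, 130 and 156 of HIST1H1B, and 108 and 121 of UNG. Cells on either side of the limit were therefore close in these genes.

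**Figure D1:**
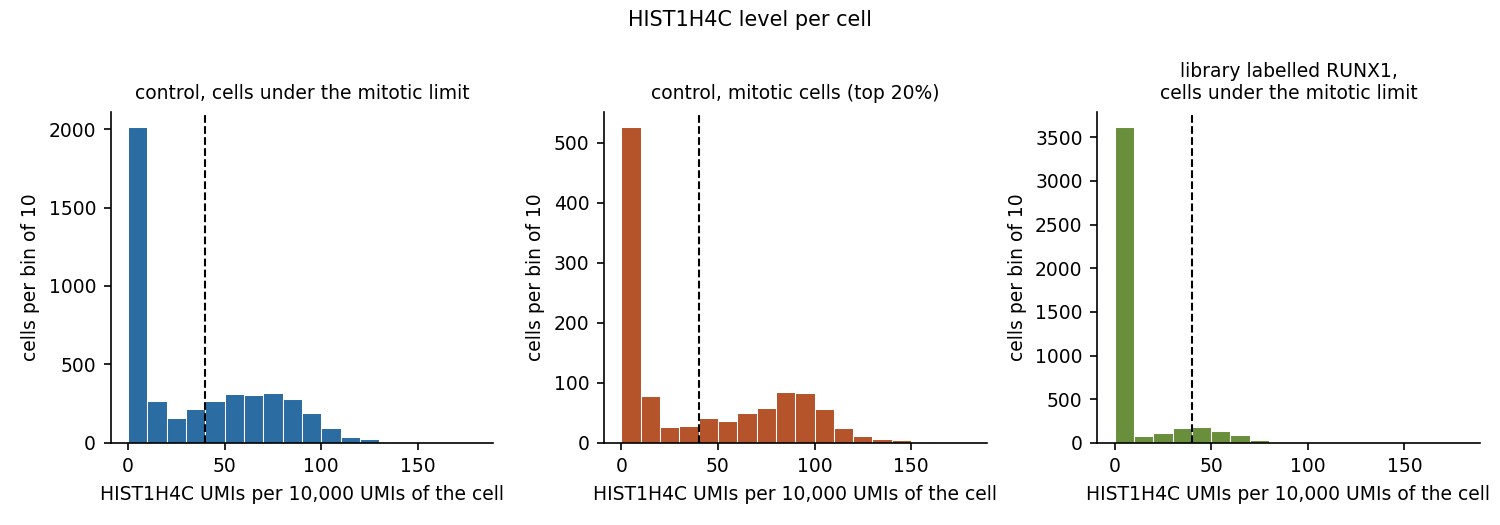
Number of cells (y axis, bins of 10) by HIST1H4C UMIs per 10000 UMIs of the cell (x axis) in control cells under the mitotic limit, in control mitotic cells and in cells under the same mitotic limit of the library labelled RUNX1. The dashed line is the limit of 40. Both control panels have a low peak under 10 and a broad high peak, between 40 and 100 in cells under the mitotic limit, while the third panel has 435 cells at or over the line.

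Histone-high cells were deeper than low-histone cells and shallower than mitotic cells. The median was 13641 UMIs and 3474.5 genes per cell, against 10837 and 2994 in low-histone cells and 16258 and 3945 in mitotic cells. Mitochondrially encoded genes took a median of 9.53%, 9.51% and 8.92% of UMIs. Phase scores from 42 S genes and 48 G2/M genes outside the rule called 64.2% of histone-high cells S and 35.8% G2/M. Of low-histone cells, 73.7% were called S, 11.8% G2/M and 14.5% G1. An S call therefore did not set histone-high cells apart from low-histone cells. All 13 B precursor markers were detected in the 3 groups, at 5543, 4814 and 5814 CPM in sum, and the T cell, NK cell and myeloid markers summed to between 1.98 and 10.0 CPM, with CD3D, CD3E, CD3G, CD5, CD7, GNLY, S100A8, S100A9 and FCGR3A at 0 UMIs. Erythroid and platelet markers summed to 0 UMIs in histone-high cells. The libraries shared 12 barcodes, of which 5 were histone-high cells whose barcode also passed in the library labelled RUNX1. Doublets were not called. The part of depth, doublets and shared barcodes in the results was not tested.

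Beside HIST1H4C, most of the other histone genes with enough UMIs to compare were higher in these cells. The 74 other replication-dependent histone genes summed to 1188 CPM in histone-high cells (1174 to 1201), 286 in low-histone cells (280.0 to 292.0) and 479 in mitotic cells. The log2 ratio was 2.05 over low-histone (2.02 to 2.09), 1.31 over mitotic and 1.72 over all remaining cells. HIST1H4C held most histone UMIs, since all 75 genes together gave 8484 CPM. Of these 74 genes, 60 had a UMI in passing cells and 48 had 20 or more. Among the 48, 47 were higher by 0.5 or more on the log2 scale than in the remaining cells and 1 was lower. Of 7505 genes at 10 CPM or more in either group, 140 were higher by that much (1.87%) and 149 lower (1.99%). That floor is higher than the 20 UMIs used for the 48 genes. At 10 CPM all measured H1, H2A, H2B and H3 genes were higher, and the 1 lower gene was not measured.

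Linker histone H1, which binds the DNA between nucleosomes, gave the largest sums after H4. HIST1H1B (chr6:27834570-27835366 of GRCh37, minus strand) was at 191 CPM in histone-high cells (186 to 196), 28.5 in low-histone cells (26.6 to 30.5) and 77.9 in mitotic cells. HIST1H1C was at 176, 40.2 and 61.5 CPM, and HIST1H1E at 122, 24.6 and 46.0. HIST1H1D was at 199, 58.5 and 63.8 CPM. The log2 ratios over low-histone cells ran from 1.77 (HIST1H1D) to 2.74 (HIST1H1B). After each cell was thinned to 8000 UMIs, HIST1H1B had a UMI in 72.9% of 1762 histone-high cells, 15.8% of 2350 low-histone cells and 33.9% of 1073 mitotic cells (87.2%, 20.3% and 47.8% unthinned). A cell type that should lack the gene is not among these cells, so the share given by free RNA is not known.

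Core histones, around which DNA is wrapped, showed the same order of the 3 groups. The H2A genes summed to 320.3 CPM in histone-high, 73.2 in low-histone and 136 in mitotic cells. HIST1H2AM was at 85.6, 16.4 and 33.0 CPM and HIST2H2AC at 54.8, 14.2 and 23.2. HIST1H2AI had the highest log2 ratio over the remaining cells of all genes measured outside the rule, 2.11 (1.88 to 2.34), at 19.2 against 4.44 CPM. The H3 genes summed to 80.7, 18.2 and 40.6 CPM, with HIST1H3B at 19.0, 3.36 and 12.3. The 14 H4 genes other than HIST1H4C gave 29.2, 10.5 and 15.05 CPM. The H2B sum differed least, at 68.7, 32.2 and 38.7 CPM, a log2 ratio over low-histone cells of 1.09. That sum leans on HIST1H2BK, which gave 365 of the 987 H2B UMIs of low-histone cells and 139 of the 1803 of histone-high cells. Of the 14 H2B genes with 20 or more UMIs, 13 were higher than in low-histone cells and 1 lower.

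The single lower gene was HIST1H2BK, named here after its values were seen. It was at 5.29 CPM in histone-high cells (4.45 to 6.25), 11.9 in low-histone cells (10.7 to 13.2) and 4.61 in mitotic cells, a log2 ratio over low-histone cells of -1.17 (-1.46 to -0.89). HIST1H2BK is known to give polyadenylated transcripts outside S phase. The 25 histone genes with a matched position and 20 or more UMIs were 19 on chromosome 6, 5 on chromosome 1 and 1 on chromosome 12. The median log2 ratio over low-histone cells was 1.72 on chromosome 6 and 1.62 on chromosome 1.

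**Figure D2:**
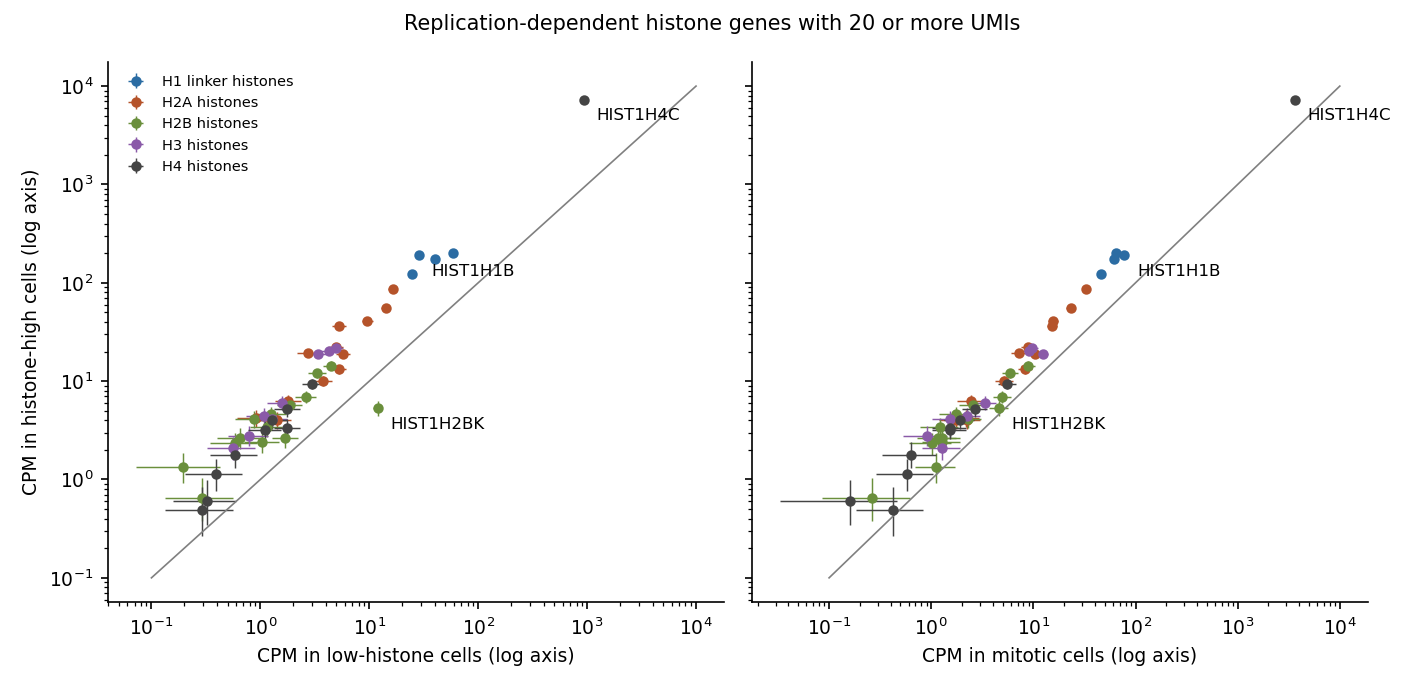
CPM of each replication-dependent histone gene with 20 or more UMIs in histone-high cells (y axis) against low-histone cells (left) and mitotic cells (right), both axes logarithmic, coloured by histone class. Bars are 95% Poisson intervals and the line marks equal levels. Almost all points lie above the line in the left panel, where HIST1H2BK lies below it at 5.29 against 11.9 CPM.

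Replication-independent histone variants differed by less in the median, though H2AFX and CENPA were well above that median over low-histone cells. Of 8 measured, 1 was higher and 1 lower than in the remaining cells (median log2 ratio 0.21). Against low-histone cells 3 were higher and 0 lower (0.32), and against mitotic cells 0 were higher and 1 lower (-0.03). Over all genes, the higher and lower shares in these comparisons were 1.87% and 1.99%, 4.09% and 1.75%, and 2.08% and 5.28%. A count of 1 of 8 cannot be set apart from such shares. H1FX, a linker variant, was at 291, 166 and 234 CPM in histone-high, low-histone and mitotic cells. H2AFX, the variant phosphorylated at DNA breaks, was at 105, 41.8 and 128 CPM, and the centromere variant CENPA at 23.3, 9.60 and 108. None of the 14 measured genes of histone messenger RNA synthesis and 3' end processing passed 0.5 in size against the remaining cells. Against mitotic cells 2 of the 14 were higher and 0 lower, where 2.08% of all genes were higher. SLBP, which binds the stem-loop, was at 275 CPM (269 to 282) against 298 in low-histone cells (291 to 304). In mitotic cells it was at 169 CPM at or over the HIST1H4C limit and at 177 under it. Among 21 chaperone and chromatin assembly genes 2 were higher than in the remaining cells, against 1.87% of all genes, and that count is small. They were ASF1B, which hands H3 and H4 to the fork, at 94.4 against 61.4 CPM in the remaining cells, and HELLS at 172 against 119.

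The deoxynucleotide genes were higher as a group by a modest median. Of 14 measured, 6 were higher than in the remaining cells and none lower, with a median log2 ratio of 0.28, against -0.02 over all 7505 genes. Of all those genes, 1.87% were higher and 1.99% lower. RRM2, the regulated subunit of ribonucleotide reductase, was at 218 CPM in histone-high cells (212 to 224), 105 in low-histone cells (102 to 109) and 103 in mitotic cells (98.4 to 108). Its log2 ratio was thus near 1 against either group, 1.05 and 1.08. Thymidine kinase TK1 was at 162, 71.4 and 107 CPM, thymidylate synthase TYMS at 665, 396 and 460.0, and DUT, which removes dUTP, at 895, 561 and 549.7. Thinned to 8000 UMIs, RRM2 had a UMI in 80.7% of histone-high, 44.6% of low-histone and 52.9% of mitotic cells (91.9%, 50.4% and 74.9% unthinned).

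Genes of the replication machinery were higher by less than the histones. Of 27 origin licensing and firing genes 6 were higher than in the remaining cells, of 30 fork genes 9, of 16 G1/S genes 5 and of 20 checkpoint and fork repair genes 9, and none in these lists was lower. The median log2 ratios of the lists, in that order, were 0.35, 0.40, 0.34 and 0.47. CDC45, part of the helicase that unwinds DNA, was at 92.5, 48.0 and 40.4 CPM in histone-high, low-histone and mitotic cells. The sliding clamp PCNA was at 428, 301 and 204 CPM, and CLSPN, the claspin gene of the replication checkpoint, at 98.1, 67.3 and 42.5. RAD54L, of recombination repair, was at 25.8, 13.0 and 13.5 CPM, and RAD51AP1 at 113, 52.7 and 74.4. E2F8, a repressor of the E2F family, was at 42.05, 19.2 and 23.6 CPM.

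Against low-histone cells alone, the leading non-histone genes were those of G2. Of 7484 genes, 306 were higher by 0.5 or more in histone-high cells (4.09%) and 131 lower (1.75%). Higher genes were 70.0% of those counted, or 54.0% (308 against 262) with totals that left out mitochondrially encoded and ribosomal protein genes. With genes at 1 CPM they were the minority, 45.6% (641 against 766). Among the 306 higher genes were 33 of 36 measured G2/M genes outside the rule, with a median log2 ratio of 1.16, and 11 of 15 genes of condensin and chromosome structure, with a median of 0.79. FOXM1, the transcription factor of G2 genes, was at 38.8 CPM against 13.8, TOP2A, which untangles DNA, at 262 (255 to 268) against 77.7 (74.6 to 80.9), and the condensin subunit NCAPG at 92.9 against 39.3.

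Against mitotic cells the order was turned for these genes and kept for the replication genes. Of 7598 genes, 158 were higher (2.08%) and 401 lower (5.28%). Higher genes were 28.3% of those counted, or 42.1% (209 against 287) when scaled by the median of ratios. The lower genes held 32 of 38 G2/M genes outside the rule, at a median of -0.85. PIF1, a helicase, had the lowest ratio over the remaining cells of the genes outside the rule: it was at 9.94 CPM in histone-high, 7.18 in low-histone and 82.7 in mitotic cells. CENPE, a kinetochore motor, was at 44.4, 18.5 and 185 CPM, KPNA2, an importin, at 125, 95.6 and 438, and PSRC1 at 9.48, 3.40 and 41.7. The higher genes held 12 of 27 licensing genes, 13 of 30 fork genes and 8 of 16 G1/S genes. PIF1 and PSRC1 were under 10 CPM in histone-high cells and were measured only through the mitotic cells, where they were higher. Because other G2/M genes, CENPE and PIF1 vary with the genes that set the mitotic limit, their levels partly follow from the rule. The count of 32 of 38 and the median of -0.85 are therefore a description.

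Some named genes were low in histone-high cells against both groups. Genes were named in part for low ratios over the remaining cells. Of those below, DDN, PLD6, OAS2, SERPINB9 and TNFRSF13C were under 10 CPM in histone-high cells. They were measured only through the groups where they were higher, so their low ratios are a description. FJX1, the human four-jointed gene, was at 25.4 CPM (23.5 to 27.4) against 46.7 in low-histone and 47.6 in mitotic cells, and DDN at 4.53 against 11.1 and 8.43. PLD6 was at 7.50, 16.3 and 17.1 CPM, the antiviral gene OAS2 at 8.15, 16.5 and 14.0, the granzyme inhibitor SERPINB9 at 7.85, 15.2 and 14.4, and the BAFF receptor gene TNFRSF13C at 9.03, 15.5 and 18.1. MYC, the growth-promoting transcription factor, was at 366 CPM (359 to 373) against 597 (588 to 606) and 533 (522 to 543). Over all 7505 genes, 1.87% were higher and 1.99% lower than in the remaining cells. Of the 15 measured MYC and nucleolar genes 4, MYC among them, were lower and none higher, at a median log2 ratio of -0.35. The other 3 were RRP12, NOP16 and WDR43, which act in ribosome assembly, with log2 ratios of -0.56, -0.54 and -0.53.

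Housekeeping lists moved little against the remaining cells. None of 78 ribosomal protein genes, 13 mitochondrially encoded genes, 19 glycolysis genes, 17 chaperone genes, 21 spliceosome genes or 23 B precursor genes passed 0.5 in size against the remaining cells. Their medians ran from -0.14 for chaperones to 0.05 for mitochondrially encoded genes. Ribosomal protein genes had a log2 ratio above 0 in 2 of 78 against low-histone cells and in 75 of 78 against mitotic cells. They summed to 269021 CPM in histone-high, 286727 in low-histone and 255491 in mitotic cells, so small shifts went one way over many genes. Within the B precursor list, IGLL1, of the surrogate light chain, was at 1876 CPM against 1190 in low-histone and 1851 in mitotic cells, and CD79A, of the receptor complex, at 123, 156 and 152.

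**Figure D3:**
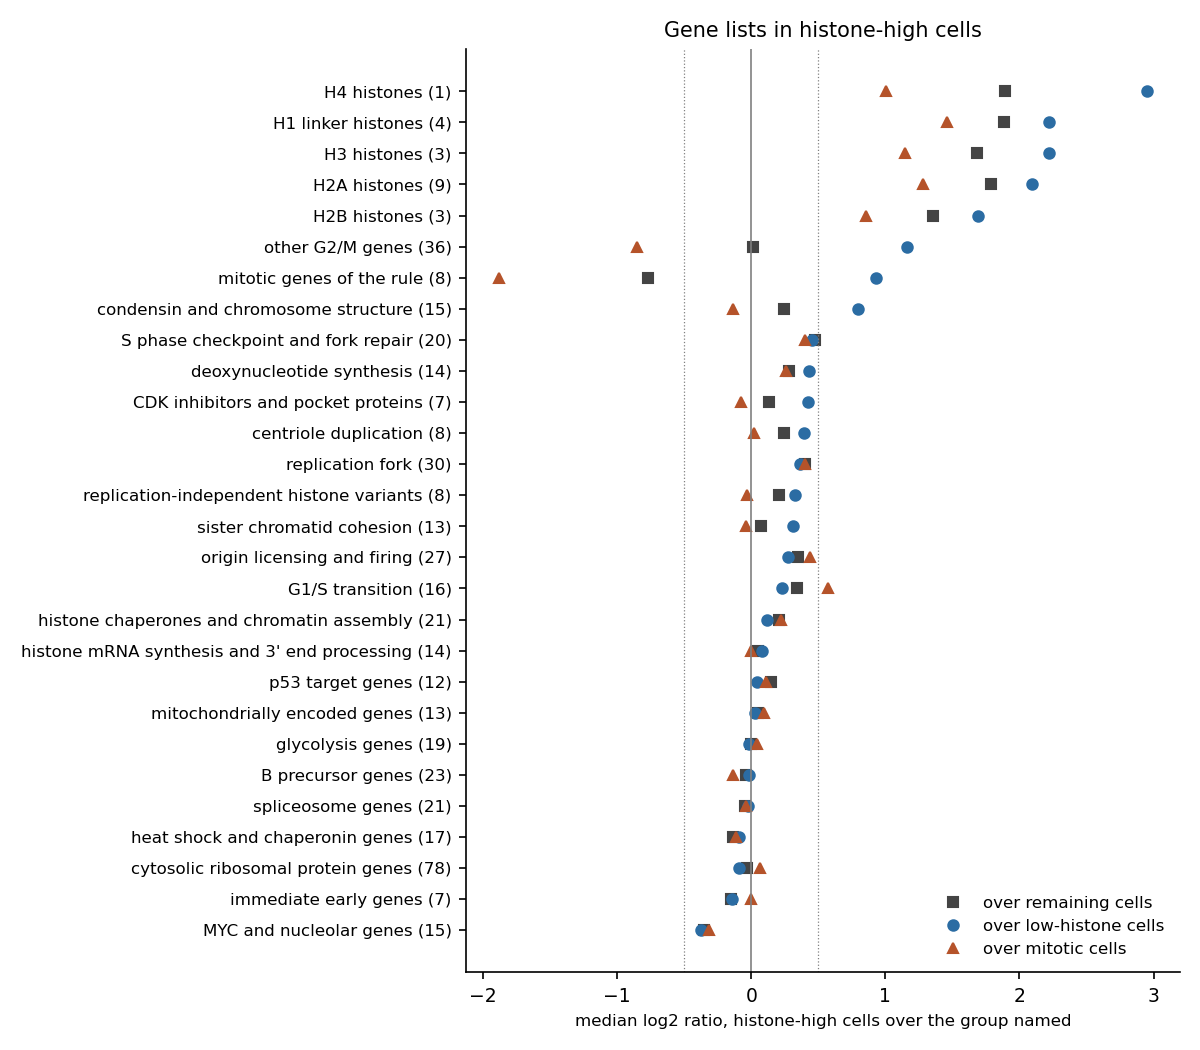
Median log2 ratio of each gene list (x axis) in histone-high cells over remaining, low-histone and mitotic cells, with the number of genes measured against low-histone cells in brackets. Dotted lines mark 0.5 in size. Histone classes lie to the right in all 3 comparisons, and MYC and nucleolar genes lie left of 0 in all 3. Other G2/M genes lie at 1.16 over low-histone cells and at -0.85 over mitotic cells. The value of -0.85 partly follows from the rule, which chose the mitotic cells by G2/M genes.

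Outside the histone lists, the 10 genes most like HIST1H4C in pattern (highest ratio over low-histone cells among genes also higher than in mitotic cells) were FOXM1, MELK, ZDHHC12, TK1, CHAC1, ESCO2, E2F8, RAD51AP1, GMEB1 and SPC24. The log2 ratios over low-histone cells ran from 1.08 (SPC24) to 1.49 (FOXM1). The ratios over mitotic cells ran from 0.07 (SPC24) to 0.97 (ZDHHC12), and the intervals of SPC24 and FOXM1 over mitotic cells included 0. ZDHHC12, a palmitoyltransferase, was at 35.2, 13.7 and 17.9 CPM, and ESCO2, which acetylates cohesin during replication, at 74.9, 33.5 and 57.5.

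Along the HIST1H4C level itself, genes turned at different points. RRM2 was at 43.5 CPM in cells with under 5 HIST1H4C UMIs per 10000, 136 at 5 to 20, 226 at 20 to 40 and 233 at 40 to 60, and 214 in the 164 cells at 100 or more. It was thus nearly as high in the 372 cells just below the limit as in any histone-high bin. UNG, which removes uracil from DNA and is best known at G1/S, was at 67.2, 108 and 121 CPM in the 3 bins below the limit and at 91.1, 51.4, 40.2 and 25.9 in the 4 bins above it. CCNE2, a cyclin E gene, likewise read 52.4 CPM at 20 to 40 and 25.0 at 100 or more. HIST1H1B read 8.26, 19.9 and 111 below the limit and 162, 185, 224 and 215 above it. TOP2A was higher in each bin than in the one before, from 57.7 to 371 CPM, and ZDHHC12 went from 12.8 to 44.7. MYC was lower at 60 or more, between 322 and 349 CPM, than at under 5, 631. Bins share the measure that formed them, and depth differed between them, with medians of 10324 UMIs under 5 and 13994 at 100 or more.

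**Figure D4:**
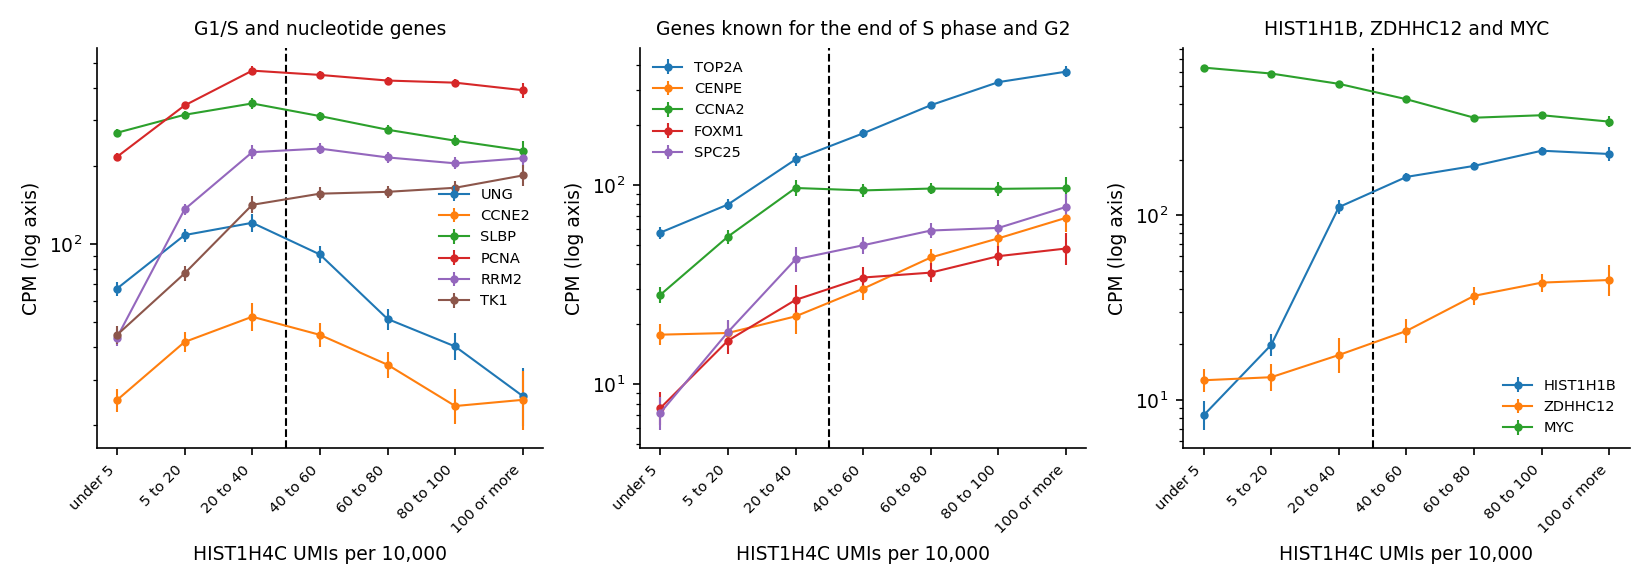
CPM (log axis) of selected genes in cells under the mitotic limit, binned by HIST1H4C UMIs per 10000 (x axis). The dashed line is the limit of 40 and bars are 95% Poisson intervals. UNG and CCNE2 are highest in the bin of 20 to 40, RRM2 is flat from there on, and TOP2A and CENPE are higher at each step across the limit.

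The histone-high cells were also split into 4 equal groups by the 8 mitotic genes of the rule. G2/M genes vary with the genes that formed these groups, so their order across the groups follows in part from the split and is a description. From the lowest to the highest group, of 457 or 458 cells each, TOP2A was at 181, 219, 275 and 368 CPM and CENPE at 29.5, 39.9, 43.7 and 63.9. UNG was at 87.7, 62.8, 49.7 and 34.0 CPM and MCM6, of the replicative helicase, at 167, 161, 149.9 and 124. RRM2 stayed between 207 and 228 CPM and TK1 between 159 and 164, and their intervals overlapped between all groups. The median HIST1H4C was 60.7, 67.9, 73.4 and 83.0 per 10000. The other histone genes read 1143 CPM in the first group and 1226 in the last.

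The mitotic cells at or over the HIST1H4C limit were the cells most like the members in histone level. Their other histone genes gave 1003 CPM, against 1188 in histone-high cells and 156 in mitotic cells under the limit. HIST1H1B was at 176 and 17.5 CPM in the mitotic cells over and under the limit, and RRM2 at 157 and 69.4. UNG was at 17.3 CPM in those over it, below the 58.2 of histone-high cells, and CENPE at 178, above the 44.4. FBXO5, the inhibitor of the anaphase-promoting complex, was at 88.1 CPM in histone-high cells and at 105 and 25.2 in the same mitotic cells.

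The same limits applied to the library labelled RUNX1 found 435 of 4800 passing cells (9.06%, 8.27 to 9.91), against 32.7% in the control. With 1 library a condition, this difference has no replicate check. Labels give doxycycline for the library labelled RUNX1 only, so its part in differences between the libraries cannot be told apart. The median depth of passing cells was 14805 UMIs there and 12505.5 in the control, and its part in the shares was not tested. Their HIST1H4C was at 5444 CPM against 629 in the 3976 low-histone cells beside them. Within that library, 798 of 7916 genes were higher (10.1%) and 1003 lower (12.7%) by 0.5 or more than in its low-histone cells. RRM2 was at 122 against 24.2 CPM there, a log2 ratio of 2.34 (2.22 to 2.45), where the control gave 1.05 (0.98 to 1.11). TK1 gave 2.42 and 1.18, CDC45 1.99 and 0.95, and HIST1H1B 2.72 and 2.74. Replication fork genes had a median of 1.23 there and 0.36 in the control, and other G2/M genes 2.24 and 1.16. ZDHHC12 and GMEB1 were the exceptions among the genes named for their likeness to HIST1H4C, at 0.51 and 0.53 against 1.36 and 1.10. The larger ratios rest on unlike low-histone cells. Fork genes summed to 1316 CPM in those of the library labelled RUNX1 and to 2506 in those of the control. Within the limits they summed to 2850 and 3288 CPM. Other G2/M genes summed to 783 and 1456 CPM in low-histone cells and to 2820 and 2775 within the limits. RRM2 within the limits was at 122 and 218 CPM.

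Between the cells within the limits of both libraries, 632 of 7688 genes were higher in the library labelled RUNX1 (8.22%) and 1205 lower (15.7%), with a median of -0.12 over all genes. HIST1H4C was at 5444 and 7296 CPM. The sum of the other histone genes was 925 CPM there and 1188 in the control. HIST1H2AM was at 22.3 and 85.6 CPM and HIST1H3D at 42.2 and 21.6, so single genes went both ways. The fork genes had a median of -0.17, with 5 of 30 lower. HIST1H2BK was again lower than in low-histone cells, at 8.09 against 25.2 CPM in the library labelled RUNX1.

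**Figure D5:**
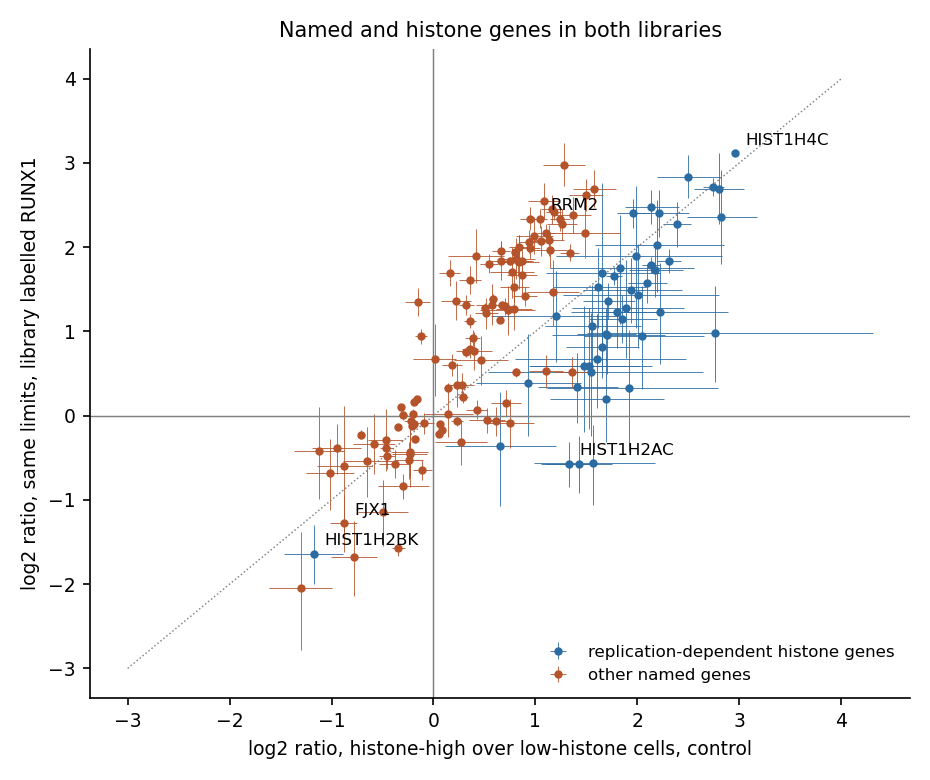
Log2 ratio of cells within the limits over low-histone cells, with the control on the x axis and the library labelled RUNX1 on the y axis, for the named genes and the histone genes with 10 or more UMIs in each RUNX1 group. Bars are 95% intervals for counting error and the dotted line marks equal ratios. Most other genes, such as RRM2, lie above the dotted line. RRM2 was lower in the low-histone cells of the library labelled RUNX1 than in those of the control. HIST1H1B and HIST1H4C lie close to the line and HIST1H2AC has ratios of opposite sign.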

How the data were processed

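The 2 scRNA-seq libraries of Nalm-6 cells, made on the 10x Genomics platform, were used. The 10 ChIP-seq samples were not analysed here. Per the labels, the authors ran Cell Ranger 3.0.2 on a joint human (hg19) and mouse (mm10) reference and deposited raw UMI counts per human gene and cell. Other settings are not given in the sources used here. The study's filters on genes and mitochondrial UMIs were applied, and doublets were not called. Mouse cells were loaded in the same lanes, and 0 passing control cells had 500 or more mouse UMIs. UMIs were summed over the cells of a group and scaled to CPM of all human UMIs (26256727 in histone-high cells). Genes at 10 CPM or more in either group were compared, and a log2 ratio of 0.5 in size was counted as higher or lower. Intervals are exact Poisson for levels, exact conditional binomial for log2 ratios and exact (Clopper-Pearson) for shares, at 95%, and cover counting error only. Functions were tested on simulated data. Sums were made with pandas 2.3.3 and numpy 2.4.6, and intervals with scipy 1.17.1, under Python 3.11.15. Positions are from GENCODE 44 on GRCh37.

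The members and the 35 gene lists were chosen with earlier results of these data known. Named genes were the 15 highest and 15 lowest ratios over the remaining cells outside the rule's own genes, up to 4 per list by size, and the 10 most like HIST1H4C in pattern. HIST1H2BK, UNG, CCNE2, MCM6, SLBP, TOP2A and the histone genes HIST1H2AC, HIST1H2BD, HIST2H2AA3 and HIST2H2BE were named after their values were seen. Alternatives covered the limits, filters, scaling, thinning and a random split of the UMIs.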

Additional observations from a re-analysis of the deposited data

Results flagged for a closer look

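For 3 histone genes, the ratio of histone-high over low-histone cells was 0.5 or more in size in both libraries, of opposite sign, with both intervals clear of 0. Other genes had opposite signs with a smaller ratio or an interval that included 0, such as HIST1H2BD at 0.65 and -0.36. HIST2H2AA3 had a log2 ratio of 1.43 in the control (1.11 to 1.76) and -0.57 in the library labelled RUNX1 (-0.92 to -0.24), HIST1H2AC 1.33 and -0.57, and HIST2H2BE 1.57 and -0.57. In CPM, HIST1H2AC was at 13.3 and 5.29 in the control and at 14.3 and 21.3 in the library labelled RUNX1, so its level in histone-high cells was close in both and its level in low-histone cells was not. HIST2H2BE rested on few UMIs, at 3.39 CPM in histone-high control cells. HIST2H2AA3 has a near-identical copy. The difference between libraries was not tested, since each is 1 library.

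Among the 475 control barcodes that did not pass the filters, 126 reached the HIST1H4C limit. Of these, 123 had too few genes, 2 too many and 1 too many mitochondrial UMIs, and 99 were also under the mitotic limit. They enter no value above.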

How the results depend on the processing

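No paired analysis was possible because each condition was 1 library. The number of histone-high cells ran from 1237 (cells under 10% mitochondrial UMIs) to 2115 (top 10% left out) over 8 alternatives, and members chosen on a random 1 of 2 parts of the UMIs numbered 1805, of which 1700 were also members. Counts of higher and lower genes stayed within 1.5 times under the alternatives run but 3. With genes at 1 CPM, 357 were higher and 697 lower than in the remaining cells, 641 and 766 than in low-histone cells, and 494 and 1080 than in mitotic cells. With a log2 ratio of 1, the numbers were 23 and 8, 94 and 5, and 32 and 57. With totals that left out mitochondrially encoded and ribosomal protein genes, 262 were lower than in low-histone cells, and the higher genes went from 70.0% to 54.0% of those counted. At 1 CPM the share of higher genes was 45.6%. Scaling by the median of ratios moved that share from 28.3% to 42.1% against mitotic cells. A filter on all passing cells together, chosen after seeing the data, kept all 6 counts within 1.5 times. None of the list medians or named ratios of 0.5 or more in size changed sign under 12 alternatives, and 82 of the 2724 values of such named ratios were under 0.5 in size. 1 list median was under 0.5, that of the rule's own mitotic genes over the remaining cells, -0.39 with the top 10% left out. The ratio of HIST1H1B over low-histone cells lay between 1.86 and 3.29, and that of RRM2 between 0.68 and 1.25. Genes near 10 CPM rest on few UMIs, and single histone copies most of all.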

Other observations

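Of 12 measured p53 target genes, 1 was higher in histone-high cells than in the remaining cells and 1 lower. Over all 7505 genes, 1.87% were higher and 1.99% lower, and counts this small cannot be set apart from those shares. DDB2, a damage recognition gene, was at 59.0 CPM (56.1 to 62.0), against 31.6 in low-histone and 36.0 in mitotic cells. PLK3 was at 8.42, 11.9 and 13.1 CPM, so it was measured only through the groups where it was higher. CDKN1A, the p21 inhibitor, was at 64.1, 47.7 and 48.2 CPM, a log2 ratio of 0.42 over the remaining cells (0.33 to 0.51). RBL1, the pocket protein p107, was at 24.4, 14.1 and 19.0 CPM, and CDKN2C at 34.0, 20.7 and 31.9. Of the 7 CDK inhibitor and pocket protein genes measured, RBL1 was the 1 that was higher than in the remaining cells by 0.5 or more. That count is also too small to set apart from the share over all genes.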
